A study of Mus musculus with 2 samples.

Results

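The genes described here encode 9 components of the Nodal and Activin branch of TGF-β signalling, measured in 2 cultures of mouse epiblast-like stem cells. They are the ligands Nodal and Gdf3, the co-receptor Tdgf1, the receptor Acvr2b, the secreted antagonists Lefty1, Lefty2 and Cer1, the transcription factor Foxh1 and the intracellular inhibitor Smad7. A gene was taken as a member where non-control probes of the array carried its symbol, which gave 9 of 34650 gene names and 13 probes. All 13 probes were detected on both arrays.

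Nodal and the Activins are secreted proteins that bind type I and type II receptor kinases at the cell surface. The receptors phosphorylate SMAD2 and SMAD3, which enter the nucleus with SMAD4 and bind DNA together with partners such as FOXH1. Nodal, but not Activin, also needs an EGF-CFC co-receptor, and the pathway switches on several of its own antagonists. In the embryo it patterns the epiblast and the primitive streak, and in culture it keeps epiblast stem cells undifferentiated.

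Both groups originated from the mouse line E14Tg2A of embryonic stem (ES) cells, of strain 129/Ola. EpiSC were ES cells maintained in chemically defined medium with N2/B27, to which FGF2 (12 ng/mL) and Activin A (20 ng/mL) were added. ELA-EpiSC were kept in the same medium and factors but came from Epiblast-Like Aggregates (ELA), which ES cells form in minimal medium after removal of LIF. Activin A was therefore supplied to both groups, and no culture without it was analysed here. Each group was 1 one-colour array hybridised with RNA pooled from 3 sets of experiments, so there was no replicate, and no p-value is given. Groups were taken from the sample titles, because the labels conflict. Where they state the source of the RNA, they give an Argonaute immunoprecipitate of ES cells for EpiSC and total RNA of ES cells for ELA-EpiSC.

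Levels are normalized log2 intensities, and every difference is log2 ELA-EpiSC minus EpiSC, so that a difference of 1 is a doubling of the signal. Brightness depends on the probe, so a level is compared only between the 2 arrays and never between genes. The only error that could be measured was spot noise, from 399 probes printed 10 times on each array. The standard deviation (SD) of the array difference of 1 spot was 0.084 for dim, 0.11 for intermediate and 0.097 for bright probes. It covers neither variation between cultures nor labelling. The brightest probe of a gene and its level were set by the mean over the 2 arrays. A high value on 1 array could therefore decide both. A gene was counted as past the threshold where its brightest probe differed by at least 1 with a mean level of at least 7.5. The study used these limits together with a corrected p-value for another comparison, ES cells against ELA, and without replicates that criterion could not be applied.

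The arrays lay on 1 slide and were scanned together, with a median spot signal of 71.7 for EpiSC and 79.1 for ELA-EpiSC and no saturated spot. All 10 epiblast and pluripotency markers were detected on both arrays, with a median difference of 0.17. Of the 10, 7 read higher in ELA-EpiSC and 3 in EpiSC. Among the former were Pou5f1 at 14.27 and 14.47 and Fgf5 at 15.19 and 15.34. The 8 detected spike-in controls, RNAs added in known amounts, were all dimmer for ELA-EpiSC, with a mean difference of -0.54. Scaling to them adds 0.54 to every difference given below, and calls that this ends or directions that it turns are stated with the members and named genes.

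Nodal and its co-receptor Tdgf1 were brighter in ELA-EpiSC, whereas Gdf3, a second ligand that uses the same co-receptor, was brighter in EpiSC. These 3 genes of 9 passed the threshold, namely Nodal and Tdgf1 in 1 direction and Gdf3 in the other. Over the array, 4.54% of 16649 genes passed it as higher in ELA-EpiSC and 4.46% as higher in EpiSC. Of the 6 other members, Lefty1, Lefty2 and Smad7 read higher in ELA-EpiSC, Acvr2b read lower, and Cer1 and Foxh1 differed by less than the spot noise. The median difference of the 9 members was 0.39, against 0.00 over all genes. The median absolute difference over all genes was 0.28.

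**Figure D1:**
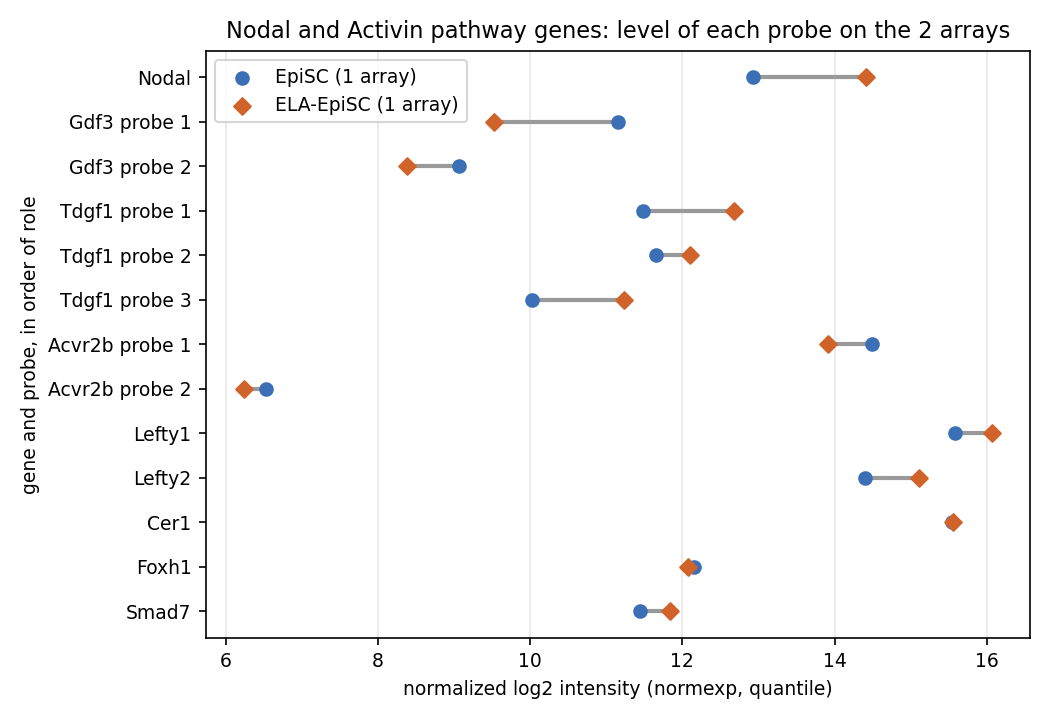
Level of each of the 13 probes (vertical axis, ordered by the role of the gene) as normalized log2 intensity (horizontal axis) on the EpiSC array (circle) and the ELA-EpiSC array (diamond), 1 array each. The longest lines are those of Nodal, from 12.93 to 14.42, the first Gdf3 probe, from 11.15 to 9.53, and the Tdgf1 probes 1 and 3, while both Cer1 points lie at about the same level.

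Nodal is the ligand that induces mesoderm and endoderm in the embryo and amplifies its own expression. Its single probe (A_52_P633560, mm9 chr10:60887790-60887849, plus strand) had a mean spot signal of 7179 in EpiSC and 22883 in ELA-EpiSC, with a local background of 26 around either spot. The normalized levels were 12.93 and 14.42. The difference of 1.49, or 2.80-fold, was 15.3 times the spot noise and lay at the 97.9th percentile of all genes. It stayed between 1.38 and 2.02 under 9 other settings of background correction, normalization and signal.

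Gdf3, a TGF-β family ligand of pluripotent cells that can act through the Nodal receptors, went the other way on both of its probes. The brighter one (A_66_P107818, mm9 chr6:122556340-122556399, minus strand) read 11.15 in EpiSC and 9.53 in ELA-EpiSC, from signals of 2029 and 775. The difference of -1.62 corresponded to a level 3.08-fold higher in EpiSC, at the 1.57th percentile of all genes. The second probe (A_55_P2158448, chr6:122555421-122555480) read 9.06 and 8.38, a difference of -0.68. Both probes were thus brighter in EpiSC under every setting, but the size depended on the probe. With spike-in scaling the second probe differed by only -0.14. The differences of Nodal and Gdf3 lay 3.11 apart, and between 3.02 and 3.18 apart under the other settings.

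Tdgf1 encodes Cripto, the EGF-CFC co-receptor that Nodal and GDF3 need to engage the Activin receptors, and was measured by 3 probes. The brightest by the mean of both arrays, numbered 1 (A_55_P2183147, mm9 chr9:110843099-110843158, minus strand) had signals of 2557 and 7098 and read 11.48 in EpiSC against 12.67 in ELA-EpiSC. Its difference was 1.19, or 2.29-fold. The probe numbered 3 (A_55_P2058540, chr9:110842866-110842925) read 10.03 and 11.24, a difference of 1.21. The probe numbered 2 (A_55_P1968028, chr9:110842722-110842781) read 11.66 and 12.11, a difference of 0.45. In EpiSC alone probe 2 was the brightest, so probe 1 was chosen through its ELA-EpiSC level. All 3 were brighter in ELA-EpiSC, and 2 of them passed the threshold. When all detected probes of a gene were averaged, Tdgf1 differed by 0.95 and no longer passed.

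The 3 Tdgf1 probes are shown because they differed in size of response. Bases 21 to 50 of each probe of 60 bases are given as the array files write them, with capitals for the part that belongs to the longest unbroken run of A and G in the probe, and the Nodal probe, whose longest run lies outside these bases, is given for comparison.
Tdgf1 probe 1: taatgttacccctcAAAAcactaactaggc
Tdgf1 probe 2: GGGGAGAAAAAAGAGAGAGAGAGAAGAAAA
Tdgf1 probe 3: tgcaactGGAAGtaaattcagagtagctga
Nodal probe: catttggttctccctgcctcaagctgtggt
Tdgf1 probe 2, with the smallest difference, held a run of 31 bases of A and G alone, against 4 and 5 in the other Tdgf1 probes and at most 9 in the probes of the other members. None of the 13 probes shared a stretch of 20 bases with a probe of another gene, and no probe of another gene was more than 63.3% identical to any of them. Whether base composition had a part in the smaller difference was not tested.

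Acvr2b is a type II receptor that binds Activin and Nodal. Its brighter probe (A_55_P2012815, mm9 chr9:119342560-119342619, plus strand) read 14.49 in EpiSC against 13.91 in ELA-EpiSC. The difference of -0.58 was 5.96 times the spot noise and below the threshold. With spike-in scaling it was -0.04. The second probe (A_55_P2378164, chr9:119347698-119347757), annotated with a predicted transcript, was near background, with signals of 58.0 and 47.4 over backgrounds of 26 and 29. It read 6.54 and 6.24, and its difference ran from -1.03 to 0.24 between settings, so it gave no direction.

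The Lefty genes encode antagonists that bind Nodal and its co-receptor, and both are known as targets of the pathway they restrain. Lefty1 (A_51_P354706, mm9 chr1:182868137-182868196, plus strand) read 15.58 in EpiSC and 16.07 in ELA-EpiSC, with signals of 48810 and 67498. Lefty2 (A_66_P136102, chr1:182828893-182828952, plus strand) read 14.40 and 15.11. Both were brighter in ELA-EpiSC, by 0.49 and 0.72, and neither reached the threshold. The differences narrowed to 0.18 and 0.49 when arrays were scaled to their 75th percentile after normexp and to 0.20 and 0.46 when the processed signal was scaled so, and came to 1.03 and 1.25 with spike-in scaling, where both passed.

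Cer1, which encodes the secreted Nodal and BMP antagonist Cerberus of the anterior endoderm, was bright on both arrays. Its probe (A_55_P1970100, mm9 chr4:82527655-82527714, minus strand) read 15.55 and 15.56, from signals of 47517 and 48666. The difference of 0.01 was smaller than the spot noise. It had the opposite sign in 4 of 9 other settings and ranged from -0.25 to 0.55, so it had no settled direction.

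Inside the cell, Foxh1 is the forkhead factor that brings phosphorylated SMAD2 to many Nodal targets, and Smad7 blocks the type I receptors. Foxh1 (A_55_P1973578, mm9 chr15:76498767-76498826, minus strand) read 12.15 and 12.08, a difference of -0.07 that was within the spot noise and became 0.46 with spike-in scaling. Smad7 (A_51_P403636) read 11.44 and 11.83, with signals of 2499 and 3995. Its difference of 0.39 was 3.997 times the spot noise and below the threshold, and Smad7 read higher in ELA-EpiSC under all 9 other settings.

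In order of their differences, the members ran from Nodal through Tdgf1, Lefty2, Lefty1, Smad7, Cer1, Foxh1 and Acvr2b to Gdf3. The neighbours Lefty2 and Lefty1, Lefty1 and Smad7, and Cer1 and Foxh1 lay closer together than 2 SD of the spot noise of their gap. The gap of 0.29 between Nodal and Tdgf1 and that of 1.04 between Acvr2b and Gdf3 were larger.

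**Figure D2:**
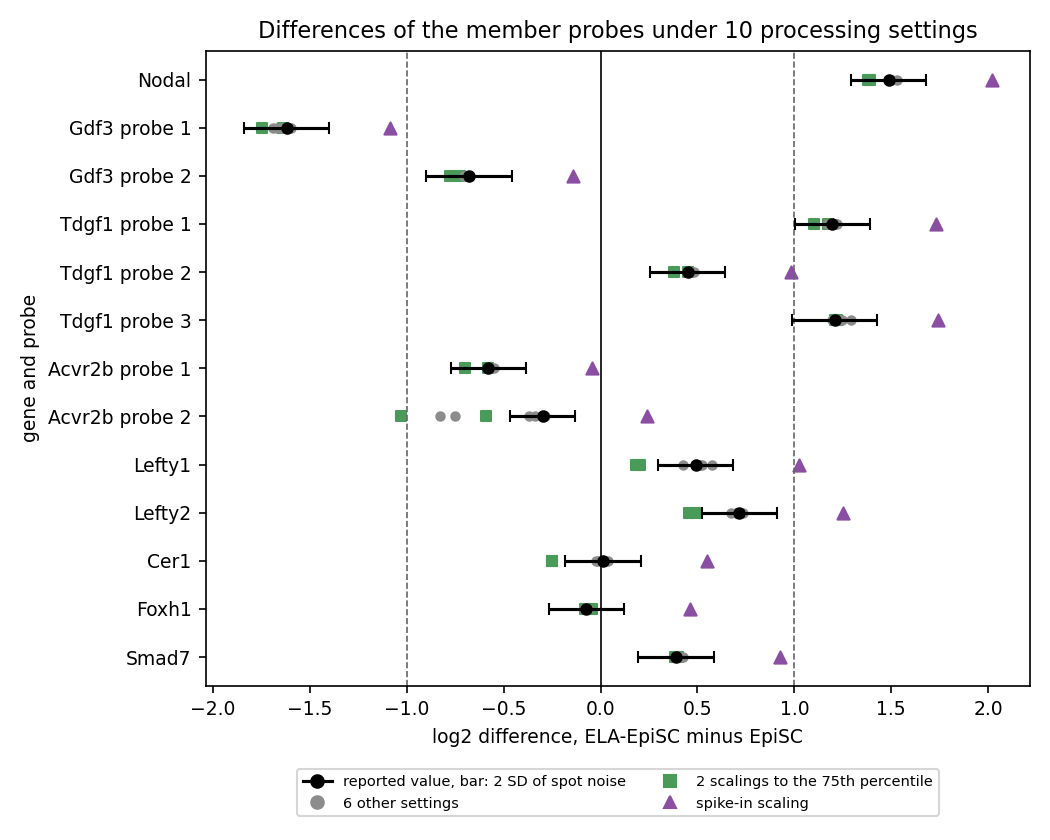
log2 difference, ELA-EpiSC minus EpiSC (horizontal axis), of each of the 13 probes (vertical axis): black points are the values reported, with bars of 2 SD of spot noise, and the other symbols are 9 other settings. Nodal, the first Gdf3 probe and the Tdgf1 probes 1 and 3 lay beyond the dashed threshold of 1 in either direction under every setting, while spike-in scaling (triangles) moved each probe to the right by 0.54 and took Lefty1 and Lefty2 past it.

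The 4 members with an entry in the RefSeq promoter table (GRCm38.p6) were Nodal, Tdgf1, Cer1 and Acvr2b. The 250 bases before the annotated start are given for Nodal and Tdgf1, which were both past the threshold in ELA-EpiSC and lie at chr10:61417722-61417971 (plus strand) and chr9:110946159-110946408 (minus strand). Both strands were searched for CAGAC, a SMAD-binding word, and for AATNCACA, a FOXH1-binding word, which do not overlap each other, and matches are in capitals.
Nodal promoter: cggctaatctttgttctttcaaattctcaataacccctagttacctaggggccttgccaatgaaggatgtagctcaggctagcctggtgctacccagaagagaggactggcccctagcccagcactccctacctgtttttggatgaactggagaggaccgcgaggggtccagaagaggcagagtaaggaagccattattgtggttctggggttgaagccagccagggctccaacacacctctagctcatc
Tdgf1 promoter: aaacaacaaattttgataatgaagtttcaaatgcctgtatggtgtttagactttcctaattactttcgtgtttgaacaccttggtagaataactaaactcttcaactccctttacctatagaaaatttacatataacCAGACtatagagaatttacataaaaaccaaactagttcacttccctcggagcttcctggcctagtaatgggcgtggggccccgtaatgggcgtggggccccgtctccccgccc
CAGAC was found 1 time each in the Tdgf1, Cer1 and Acvr2b promoters and 0 times in that of Nodal. Of all 32851 promoters of this length, 42.2% held it. AATNCACA was found in none of the 4 and in 3.18% of all promoters. The search covers these windows only and says nothing of more distant enhancers.

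Among the other genes of the pathway, 66 in 6 lists by role, 63 were detected and 59 reached the minimum level. Of these, 37 read higher for ELA-EpiSC and 22 for EpiSC, with a median difference of 0.18. The threshold was passed by 9 as higher in ELA-EpiSC and by 4 as higher in EpiSC, and they are named below by role. Over all 16649 genes, 50.2% read higher in ELA-EpiSC, and 4.54% and 4.46% passed in the 2 directions. These shares are also the background for the count of each role. With spike-in scaling 51 of the 59 read higher in ELA-EpiSC, and 18 and 2 were past the threshold. That scaling shifts all genes alike. Over the 17639 genes tested under it, the median was 0.54, and 2603 and 321 were past the threshold.

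Of 8 other ligands tested, 3 passed the threshold, all as higher in ELA-EpiSC. Inhba, which encodes the chain of Activin A, read 6.83 in EpiSC against 8.77 in ELA-EpiSC and thus differed by 1.94. Tgfb3 differed by 1.35 and Inhbe, the Activin E chain, by 1.02, the latter below 1 under 3 of the other settings. Gdf11 was detected on the EpiSC array only, at 6.23 against 6.11, near the lowest detected levels of 5.89 and 6.11. The bound of 1.09-fold higher in EpiSC holds for the reported setting only. The Gdf11 difference of -0.12 became 0.41 with spike-in scaling, and Inhbc and Mstn were detected on neither array.

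Of 9 other receptors, co-receptors and processing enzymes, 1 passed. Cfc1 encodes Cryptic, the second EGF-CFC co-receptor, and read 15.41 in EpiSC and 13.79 in ELA-EpiSC. Its difference of -1.61 was opposite in direction to that of Tdgf1, and the 2 co-receptors lay 2.81 apart, or 2.79 to 3.01 under the other settings. The type I receptor Acvr1b read 12.07 and 12.25, a difference of 0.18. The type II receptor Acvr2a read 8.83 and 9.27, a difference of 0.44, against -0.58 for Acvr2b. The type I receptor Acvr1c, also called ALK7, was detected on the EpiSC array only, at 6.28 against 5.97, also near the lowest detected levels. Its bound of 1.13-fold higher in EpiSC holds for the reported setting only, since its difference of -0.31 became 0.23 with spike-in scaling.

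Of 8 other extracellular inhibitors, 2 passed as higher in ELA-EpiSC and 1 as higher in EpiSC. Fst, which encodes the Activin-binding protein follistatin, read 10.17 and 12.57, a difference of 2.40. Fstl3, a relative of follistatin that also binds Activin, differed by 1.11. The follistatin-like gene Fstl1 read 14.19 and 13.02, a difference of -1.18, or -0.64 with spike-in scaling. Bambi, a pseudoreceptor, was not detected on either array.

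Of 11 SMADs and nuclear cofactors, 1 passed. Mixl1, a homeobox gene of the primitive streak whose product partners with SMADs, read 7.33 and 9.30, a difference of 1.97. Mixl1 too reached the minimum mean level only through the ELA-EpiSC array. The effector Smad2 read 10.94 and 10.61, Smad3 read 12.75 and 12.48, and the common partner Smad4 read 13.69 and 13.999. Those 3 differences were -0.33, -0.27 and 0.31, and the first 2 changed sign with spike-in scaling. Of 11 intracellular inhibitors, 1 passed. Smad6, the second inhibitory SMAD, read 10.31 and 8.99, a difference of -1.31, or -0.78 with spike-in scaling, and lay 1.70 below Smad7 in its difference.

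Of 12 genes known to respond to the pathway in the embryo, 3 passed as higher in ELA-EpiSC and 1 as higher in EpiSC. T, the T-box gene Brachyury of the primitive streak, read 11.18 in EpiSC against 13.66 in ELA-EpiSC and thus differed by 2.48. Cited2, a transcriptional coregulator, was measured by 2 probes that differed by 1.94 and 1.08. Fgf8, a growth factor of the streak, had 3 probes, of which the brightest differed by 1.31 and another by only 0.45. Hhex, a homeobox gene of the anterior endoderm, read 14.17 and 12.45, a difference of -1.73.

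**Figure D3:**
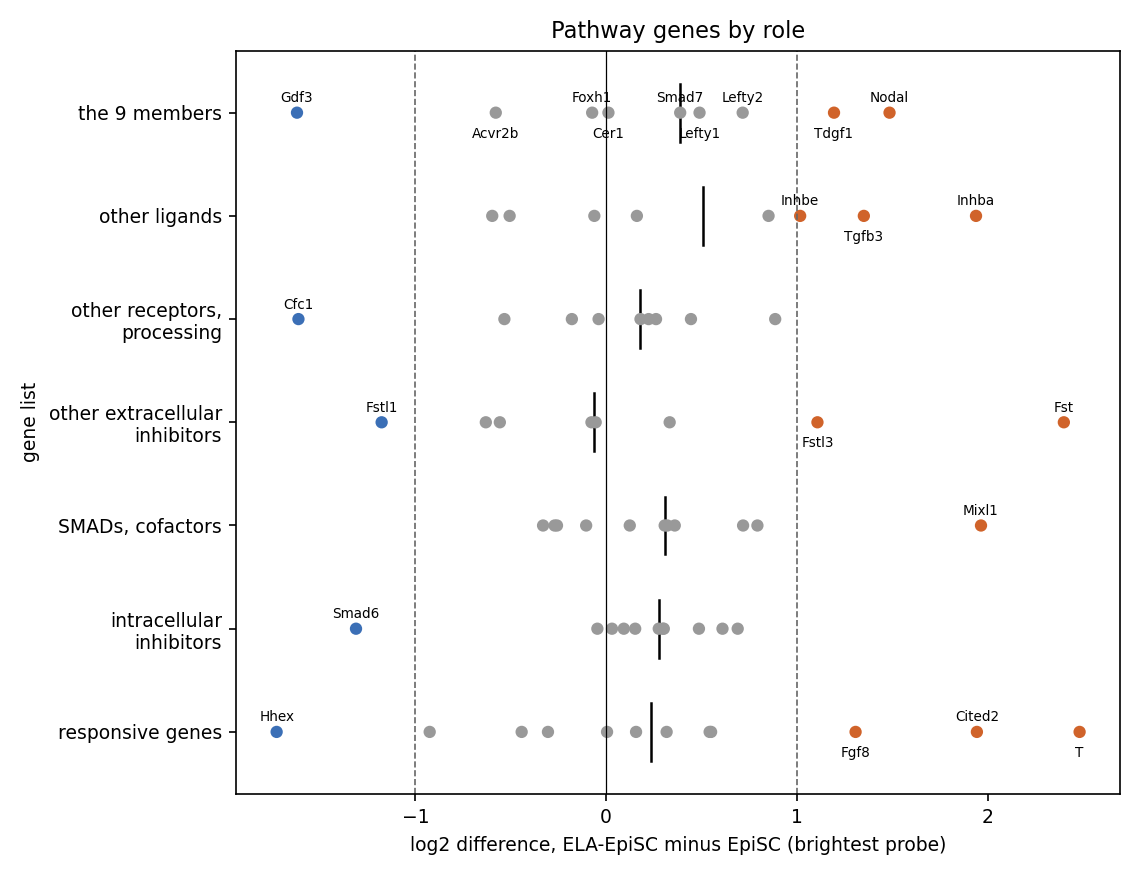
log2 difference, ELA-EpiSC minus EpiSC, of the brightest probe of each gene (horizontal axis) for the 9 members and the 6 lists of other pathway genes (vertical axis); coloured points lie past the threshold of 1 (dashed lines) and black bars are list medians. Each list from the co-receptors to the responsive genes, other than the SMADs, held a gene past the threshold towards EpiSC, and the medians lay between -0.07 and 0.51.

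Several of the genes above are also markers of cell types, 12 of the 66 among them, and 8 marker lists were therefore read on the same arrays. For the counts of these lists, the shares over all genes were 4.54% past the threshold towards ELA-EpiSC and 4.46% towards EpiSC. In bulk RNA, fewer cells of a type and less RNA per cell cannot be told apart. Visceral endoderm, an extraembryonic tissue that also makes Nodal antagonists, had 9 of its 14 markers at the minimum level, of which 7 read higher in EpiSC, with a median difference of -2.39. The 5 past the threshold were all higher in EpiSC. Hnf4a, its nuclear receptor, read 12.79 and 7.67, and Ttr, which encodes transthyretin, was detected in EpiSC only, at least 10.699-fold higher. Apoa1, an apolipoprotein gene whose mean level was below the minimum, was also detected in EpiSC only, at least 4.02-fold higher. Also below the minimum, Apob at 0.55 and Sox7 at 0.73 read higher in ELA-EpiSC, and Ihh differed by -0.30, or 0.23 with spike-in scaling. Of the 9 at the minimum level, Cubn at 0.11, within the spot noise, and Dab2 at 0.20 read higher in ELA-EpiSC. Rbp4, Amn and Gata4 differed by -3.23, -2.75 and -2.39, while Afp, a defining marker, was near background on both arrays at 6.26 and 6.47. The summed normalized intensity of the list was 47717 in EpiSC and 15645 in ELA-EpiSC. This sum is weighted towards bright probes, foremost that of Sox17, and includes the genes below the minimum level.

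The markers of the anterior visceral endoderm, where Cer1 and Lefty1 are also made in the embryo, had 8 of 8 at the minimum level and a median of -1.09. Sfrp5 differed by -4.56, Hesx1 by -4.38, Sfrp1 by -2.15 and Hhex by -1.73. Of the 8, 6 read higher in EpiSC and 2 in ELA-EpiSC, the latter being Otx2 at 0.00, with no settled direction, and Dkk1 at 0.87, or 1.40 with spike-in scaling. Over the same arrays Cer1 differed by 0.01 and Lefty1 by 0.49. Of 11 primitive streak markers, 5 were past the threshold as higher in ELA-EpiSC, namely T, Mixl1, Wnt3 at 1.42, Fgf8 and Wnt8a at 1.07. Mesp1 at -1.66 and Evx1 at -1.02 were past it as higher in EpiSC. Nodal, which is expressed in the streak, differed by 1.49 where the median of that list was 0.54. The part of cell type makeup in the differences of the members was not tested.

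Of the remaining lists, the 10 epiblast markers held 1 gene past the threshold, Pou3f1 at 1.46. The 3 that read higher in EpiSC were Dnmt3b at -0.84, Sall4 at -0.31 and Sox2 at -0.27. With spike-in scaling Sall4 turned to 0.22 and Sox2 to 0.26. Fgf5 at 0.16 changed sign in both scalings to the 75th percentile. The 8 neural markers tested held Nefl at 2.18 and Nes at 2.11 towards ELA-EpiSC and Rax at -5.96 towards EpiSC. Of the 8, 5 read higher in ELA-EpiSC and 3 in EpiSC. Sox1 at -0.09 was within the spot noise and turned to 0.45 with spike-in scaling, and Pax6 was detected on neither array. The 8 ground-state markers had a median of -0.87, with Tbx3 at -3.75, Nr0b1 at -2.74, Tfcp2l1 at -1.42 and Fgf4 at -1.41. Of the 8, 6 read higher in EpiSC, and Esrrb at 0.43 and Klf4 at 0.16 read higher in ELA-EpiSC. Of 9 fibroblast markers, 5 reached the minimum level, and 2 were past the threshold, Col1a1 at 3.72 and Pdgfra at 1.77. Col1a2 at 0.08 and Thy1 at 0.05 were within the spot noise and changed sign with the processed signal. Below the minimum level, Col3a1 differed by 1.88 and Dcn by -0.33, the latter turning to 0.21 with spike-in scaling. The 7 trophoblast markers at the minimum level had a median of -0.56, with Ascl2 at -3.00, Gata3 at -2.56, Elf5 at -1.48 and Tfap2c at 1.16. Cdx2, below that level, was near background at 6.27 in EpiSC and 6.47 in ELA-EpiSC. With spike-in scaling Evx1, Tfcp2l1, Fgf4 and Elf5 no longer passed, and scaling to the 75th percentile after normexp did the same for Wnt8a. Evx1 also fell below the threshold when the processed signal was scaled to the 75th percentile.

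**Figure D4:**
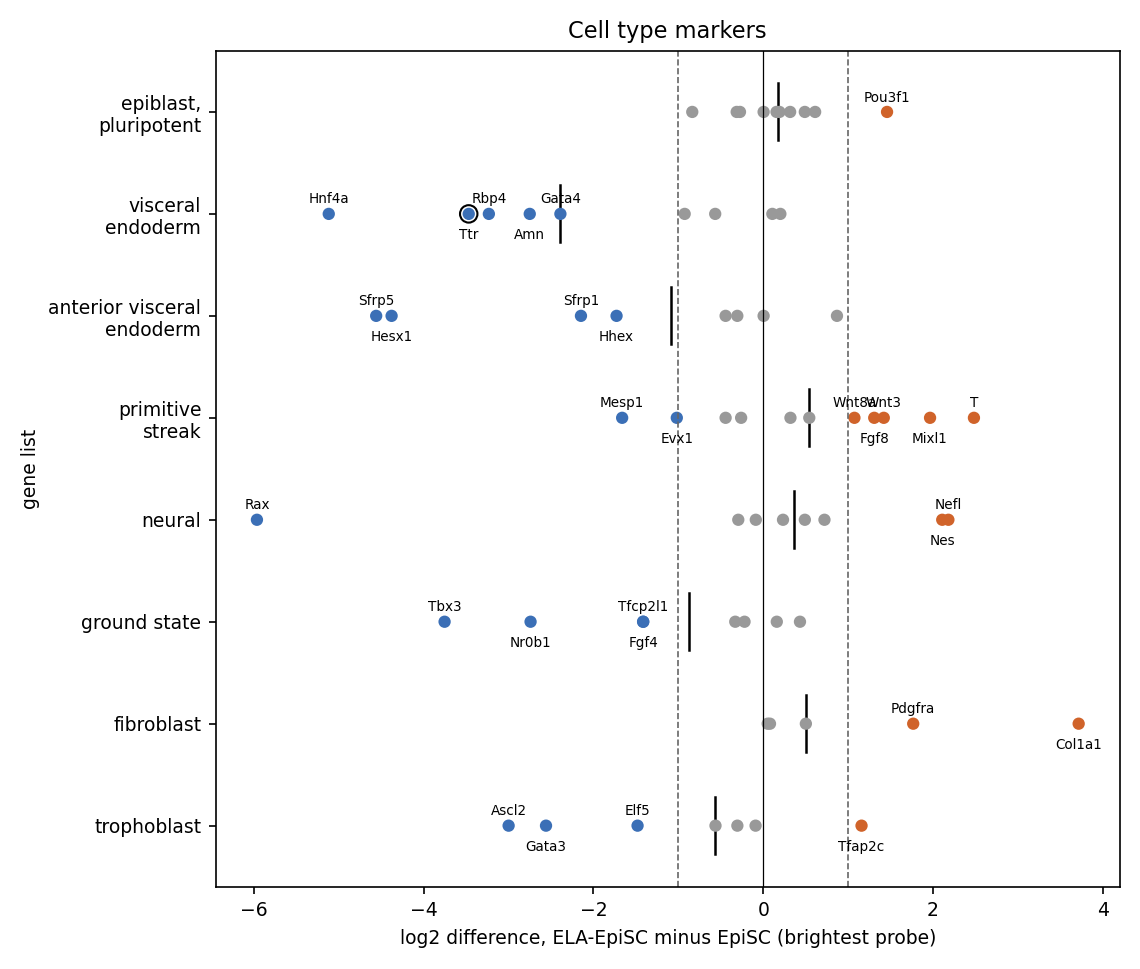
log2 difference, ELA-EpiSC minus EpiSC, of the brightest probe of each marker gene (horizontal axis) in 8 cell type lists (vertical axis), with colours, dashed lines and bars as in the plot of pathway genes by role and a ring around Ttr, detected in EpiSC only. The visceral endoderm list had the lowest median, -2.39, and the epiblast list lay around 0, with a median of 0.17.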

How the data were processed

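RNA was measured on Agilent SurePrint G3 mouse arrays, 1 per group, from 50 ng of labelled RNA per the labels. The deposited scanner files hold spot intensity, extracted by the authors with Feature Extraction 10.7.3.1 per the file headers (9.1 in the submitters' processing notes). The authors also deposited background-corrected, quantile-normalized log2 values made with limma, used here as an alternative.

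Mean intensity was corrected against the median local background by normexp (offset 50, fitted on all spots; limma 3.58.1, R 4.3.3). Control spots and spots marked as outliers (158 on the EpiSC and 117 on the ELA-EpiSC array) were removed, the arrays were quantile normalized, and values were taken as log2 and averaged over spots of a probe. Differences of dim probes are compressed by the offset, and quantile normalization hides any shift shared by all genes. Probes were detected where at least 0.5 of their spots were well above background. A gene took its brightest detected probe by the mean of both arrays. For a gene detected on 1 array, the bound is the bright value over the larger of 2 others, the dim value itself and the lowest detected level on its array (5.89 for EpiSC, 6.11 for ELA-EpiSC). Scripts were tested on simulated data.

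The members and lists were chosen with earlier results of these data known. Named were all members, other pathway genes and markers past a difference of 1, Acvr1b, Acvr2a, Smad2, Smad3, Smad4, and pathway genes detected on 1 array, with 1 pathway gene not reported here; pairs of genes and other markers were picked after their values were seen. The precision is limited by the number of arrays, 2. Probe positions are those of the array files (mm9). No mm9 annotation was used here, so the exon or UTR under a probe is not stated.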

Additional observations from a re-analysis of the deposited data

How the results depend on the processing

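Of 14 alternatives, 12 left the threshold unchanged. In all 12, Nodal and Gdf3 kept their direction and remained past the threshold of 1, and Tdgf1 did so in 11. The exception was the mean of all detected probes, under which 1 member was past the threshold as higher in ELA-EpiSC. Dropping the minimum level or requiring detection on both arrays could change no member, since all 9 met both conditions. The mean of all detected probes could not change the 6 members with 1 probe. With spike-in scaling 4 members were past the threshold as higher in ELA-EpiSC and the median of the members was 0.92, against a shift of the median of all genes to 0.54. That scaling also moved the counts over all genes to 2603 towards ELA-EpiSC and 321 towards EpiSC, or 89.0% towards ELA-EpiSC, against 756 and 742, or 50.5%. The median of the members was 0.18 when arrays were scaled to the 75th percentile after normexp and 0.20 when the processed signal was scaled so. The cause was not tested. At a threshold of 2.5, by construction stricter, 0 members passed towards ELA-EpiSC and 0 towards EpiSC, and at 1.5-fold the counts were 3 and 1. The shares of all genes at these other thresholds were not computed, so these counts cannot be set against the whole array. Of 108 recomputed differences of the 9 members, 87 moved by less than the spot noise and 21 by more. The 87 include the differences that could not change, so their number does not measure stability. No called difference changed sign. No paired analysis was possible because there was a single array for either group. With pooled RNA and no replicate, none of the differences could be set against variation between cultures.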
